A study of Mus musculus with 8 samples.

Results

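Laminins, integrins and the cytoplasmic proteins that couple them to actin were compared between tibialis anterior (TA) muscles of wild-type (WT) and Klotho null (KL-/-) mice. The genes were taken by symbol: every numbered laminin alpha, beta and gamma chain, every integrin alpha chain with a number or the letter v, every numbered integrin beta chain except *Itgb2*, and 12 further genes for the nidogens, perlecan, talins, vinculin, integrin-linked kinase, parvin, kindlin, focal adhesion kinase, paxillin and zyxin. Of the 12551 genes with counts, 39 met this rule. They comprise 10 laminin chains, 3 genes for nidogens and perlecan, 11 integrin alpha chains, 6 integrin beta chains and 9 cytoplasmic links. *Lama1*, *Itga2* and *Itgb8* were not analysed here.

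RNA was sequenced from whole TA muscles of 4 WT and 4 KL-/- male mice, bred from heterozygous parents on a mixed background. By their records all were 7 weeks old and littermates, but the labels do not say which mice shared a litter. Klotho is a membrane and circulating protein that serves as a co-receptor for a bone-derived phosphate-regulating hormone. The null allele is present in every cell of KL-/- mice, so these muscles lacked Klotho systemically and not by a deletion restricted to muscle. *Kl* itself is not among the 12551 genes, so within the counts the genotypes rest on the labels. The paper typed its mice by PCR and detected neither Klotho protein nor *Kl* mRNA in KL-/- muscle.

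Laminins are trimers of an alpha, a beta and a gamma chain that polymerize into the basement membrane around each muscle fibre, capillary and Schwann cell. Nidogens and perlecan tie this network to collagen IV. Integrins are pairs of an alpha and a beta chain that bind laminin, collagen or other ligands outside the cell, and talin, kindlin, vinculin and the kinase-parvin complex join their tails to actin. In muscle these links carry force from sarcomeres to the matrix, and loss of the laminin alpha chain of fibres or of the integrin alpha chain that binds it causes congenital muscle disease.

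Counts on genes totalled 20860262 to 26501093 per WT library and 22061526 to 29273758 per KL-/- library, and TMM factors lay at 1.02 to 1.05 and 0.950 to 0.980. Levels are CPM, counts relative to library size, scaled with these factors, given as mean ± SD over 4 mice. Log2 fold changes are KL-/- over WT with a standard error (SE), and the FDR is the Benjamini-Hochberg adjusted p over all 12551 genes from edgeR's quasi-likelihood test. The label of skeletal muscle was checked with 10 fibre markers, which were abundant in every library. They summed to 144018 to 156097 CPM in WT and 166130 to 195675 CPM in KL-/- libraries, with 0 of 10 past an FDR of 0.05 (edgeR). At an unadjusted p under 0.05, 5 were higher and 0 lower, beside 15.8% and 16.4% of all genes. KL-/- replicate 3 has a batch date of its own, the other 7 libraries share 1, and with 1 library of that date the batch cannot be told apart from the mouse.

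Of the 39 genes, 5 were lower in KL-/- muscle at an FDR under 0.05 and 0 were higher. All 5 encode integrin chains: *Itgav*, *Itgb6*, *Itga6*, *Itga11* and *Itgb7*. The share of genes called lower was 12.8% here, beside 6.67% of all genes tested, and the share called higher was 0, beside 7.35%. At an unadjusted p under 0.05, 11 were lower and 3 higher, beside 16.4% and 15.8% of all genes. DESeq2 placed 10 lower and 2 higher at its FDR under 0.05, beside 1143 lower and 1313 higher of 12542 genes. The median log2 fold change of the 39 genes was -0.14, with 28 negative and 11 positive values from -1.61 to 0.52, beside a median of -0.02 over all genes. In 8 of the 39 genes, 20.5%, every KL-/- library lay below every WT library, beside 9.47% of all genes, and in 1 gene, 2.56%, every KL-/- library lay above, beside 10.2%.

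**Figure D1:**
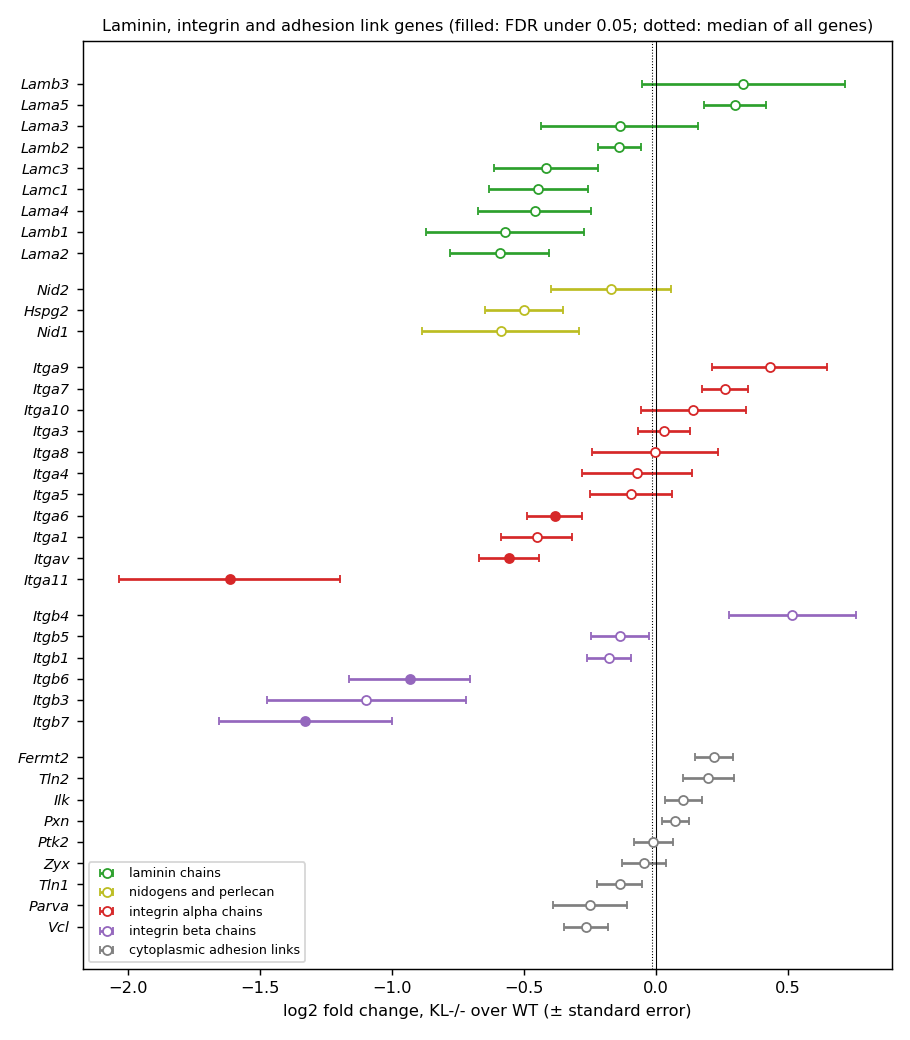
Log2 fold change of KL-/- over WT (x axis, with the standard error as bars) for 38 of the 39 genes, grouped by role and sorted within each group, with filled points for an FDR under 0.05 and a dotted line at the median of all genes. The 5 filled points are integrin chains on the negative side, and the 9 cytoplasmic links lie between -0.26 and 0.22.

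The group medians differed. They were -0.28 for laminin chains, -0.50 for nidogens and perlecan, -0.07 for integrin alpha chains, -0.55 for integrin beta chains and -0.01 for the cytoplasmic links. No laminin, nidogen or link gene passed the FDR threshold by edgeR, with 1 higher and 2 lower laminins, 1 lower matrix partner and 1 link each way at an unadjusted p under 0.05. The integrin alpha chains held 3 of the calls and the beta chains 2.

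*Itgav* and *Itgb6*, which encode partner chains, fell in KL-/- muscle. The integrin that they form binds the latency peptide of TGF-β and is known for activating that cytokine, while *Itgav* also pairs with the chains of *Itgb3* and *Itgb5*. Because these partner genes moved together, the 250 bases that precede their annotated starts are shown from RefSeq (GRCm38.p6), 5′ to 3′ on the gene's strand, with CpG dinucleotides in capitals. The *Itgav* stretch is chr2:83724147-83724396 on the plus strand and the *Itgb6* stretch is chr2:60722604-60722853 on the minus strand.
Itgav: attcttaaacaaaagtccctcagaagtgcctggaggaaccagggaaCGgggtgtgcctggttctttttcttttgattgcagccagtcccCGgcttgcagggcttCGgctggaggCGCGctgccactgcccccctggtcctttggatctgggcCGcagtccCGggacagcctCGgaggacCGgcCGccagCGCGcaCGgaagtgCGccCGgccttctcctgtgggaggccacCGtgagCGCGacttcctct
Itgb6: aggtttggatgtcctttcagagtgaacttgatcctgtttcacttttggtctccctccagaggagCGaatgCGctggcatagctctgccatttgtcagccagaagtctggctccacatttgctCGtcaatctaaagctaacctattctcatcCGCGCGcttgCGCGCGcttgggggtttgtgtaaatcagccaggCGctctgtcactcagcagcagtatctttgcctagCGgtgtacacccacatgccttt

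The *Itgav* stretch holds 18 CpG dinucleotides at 64.4% GC and the *Itgb6* stretch 11 at 52.0% GC. Over 32851 promoters of the same length the median was 6 CpG dinucleotides, and 21.7% and 35.6% of them hold at least as many as *Itgav* and *Itgb6*, so neither count is rare. Both stretches were searched on both strands for the short SMAD-binding motif CAGAC and the GC box GGGCGG, which do not overlap in sequence. CAGAC occurs once in *Itgb6* and not in *Itgav*, beside 42.2% of all promoters with a match, and GGGCGG occurs in neither, beside 32.7%. Such a match is a description of letters and not evidence of binding.

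*Itgav* (chromosome 2, 83724397 to 83806917 of mm10) was at 42.3, 45.8, 46.4 and 37.0 CPM in WT replicates 1 to 4 and at 26.3, 35.6, 26.5 and 28.4 CPM in KL-/- replicates 1 to 4. Every KL-/- library lay below every WT library, and KL-/- replicate 2 came closest to WT. The mean went from 42.9 ± 4.29 to 29.2 ± 4.36 CPM (SD, n = 4), and the log2 fold change was -0.56 (SE 0.11, FDR = 0.0144). With each library left out in turn the log2 fold change stayed between -0.66 and -0.50 and the FDR between 0.003 and 0.0456, so *Itgav* passed in all 8 fits, the 1 gene of the 39 that did.

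*Itgb6* (chromosome 2, 60598292 to 60722603) stood at 55.0, 43.4, 58.3 and 53.5 CPM in the WT libraries and at 21.9, 42.8, 18.4 and 27.2 CPM in the KL-/- libraries. The groups were separated by the narrow gap between WT replicate 2 and KL-/- replicate 2, while the other KL-/- libraries were far below. Its mean fell from 52.5 ± 6.42 to 27.6 ± 10.8 CPM (SD, n = 4), and the log2 fold change was -0.93 (SE 0.23, FDR = 0.0283). The call was held without WT replicate 2 or KL-/- replicate 2 and was lost without any 1 of the other 6 libraries, with an FDR of up to 0.0765 and a log2 fold change from -1.21 to -0.78. With the replicate number as a block its FDR was 0.0626.

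The genes of the other *Itgav* partners named above, *Itgb3* and *Itgb5*, did not pass. *Itgb5*, the chain with which *Itgav* binds vitronectin, was at 95.5 to 132 CPM in WT and 93.7 to 112 CPM in KL-/- libraries, a log2 fold change of -0.13 (SE 0.11, FDR = 0.420). *Itgb3*, best known from platelets, osteoclasts and angiogenic endothelium, was at 1.39, 3.93, 2.86 and 1.33 CPM in WT and 1.33, 0.811, 1.08 and 1.09 CPM in KL-/- libraries. The KL-/- libraries of *Itgb3* were all lower, by a very small margin from WT replicates 1 and 4, and WT replicates 2 and 3 set the WT mean. The log2 fold change was -1.10 (SE 0.38, FDR = 0.0797), and the FDR came to 0.0460 without WT replicate 4 and 0.0291 with DESeq2.

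**Figure D2:**
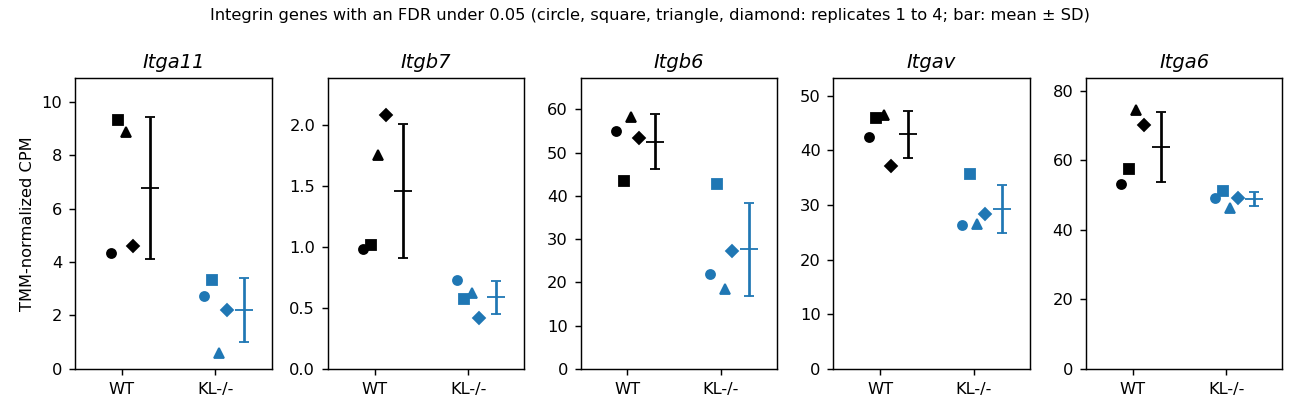
TMM-normalized CPM (y axis, from 0) of the 5 integrin genes with an FDR under 0.05 in 4 WT and 4 KL-/- libraries, with a symbol for each replicate and mean ± SD beside them. In every panel the KL-/- points lie below the WT points, and in *Itgb6* the groups nearly touch, between 43.4 CPM in WT replicate 2 and 42.8 CPM in KL-/- replicate 2.

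*Itga6* encodes a laminin-binding chain of endothelium, Schwann cells and satellite cells that pairs with the chains of *Itgb1* or *Itgb4*. It was at 53.2, 57.5, 74.5 and 70.2 CPM in WT and 49.3, 51.1, 46.3 and 49.2 CPM in KL-/- libraries (chromosome 2, 71786939 to 71858427). The KL-/- values were tightly grouped below all WT values, with WT replicates 3 and 4 well above the rest. The mean fell from 63.8 ± 10.1 to 49.0 ± 1.99 CPM (SD, n = 4), and the log2 fold change was -0.38 (SE 0.10, FDR = 0.0403). Leaving out 1 library kept the call without WT replicate 1 or KL-/- replicate 2 and lost it in the other 6 fits, with an FDR of up to 0.104 and a log2 fold change from -0.46 to -0.30, and the replicate block gave an FDR of 0.0920. Summed CPM of 10 endothelial markers was 596 to 852 in WT and 576 to 618 in KL-/- libraries, with no marker at 0 in any library. Of these 10 markers, 9 were negative and 1 was called lower (*Kdr*, log2 fold change -0.90, FDR = 0.00781), beside 6.67% of all genes. The Schwann cell markers went the other way, at 59.5 to 106 CPM in WT and 111 to 137 CPM in KL-/- libraries. Of these 10, 9 were positive and 4 were called higher, beside 7.35% of all genes. Satellite cell markers summed to 43.8 to 55.6 CPM in WT and 48.5 to 61.3 CPM in KL-/- libraries, with 5 of 6 positive and 0 called. The part of any of these cell types in the *Itga6* result was not tested.

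*Itga11* and *Itgb7* showed the most negative log2 fold changes among the 39 genes, both at low levels. *Itga11*, the collagen receptor chain of fibroblasts, was at 4.33, 9.30, 8.85 and 4.59 CPM in WT and 2.72, 3.34, 0.580 and 2.19 CPM in KL-/- libraries (chromosome 9, 62677855 to 62783979). All KL-/- libraries were below all WT libraries, and KL-/- replicate 3, with 14 counts, was the lowest. The mean fell from 6.76 ± 2.67 to 2.21 ± 1.18 CPM (SD, n = 4), and the log2 fold change was -1.61 (SE 0.42, FDR = 0.0336). The call was lost without WT replicate 2, WT replicate 3, KL-/- replicate 1, KL-/- replicate 3 or KL-/- replicate 4, with an FDR of up to 0.0931 and a log2 fold change from -1.84 to -1.30, and the block gave an FDR of 0.0753.

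Markers of fibro-adipogenic progenitors, the collagen-producing interstitial cells of muscle, moved in the same direction as *Itga11*. All 10 had a negative log2 fold change, with a median of -0.98. Of these markers 4 (40%) passed the FDR threshold (*Lum*, *Dpt*, *Dcn* and *Gsn*), beside 6.67% of all genes called lower. Their summed CPM was 1943, 3411, 3655 and 1343 in WT and 1485, 1642, 691 and 897 in KL-/- libraries, with no marker at 0 in any library. WT replicates 2 and 3 were highest in this sum and in *Itga11*, and KL-/- replicate 3 was lowest in both. The collagen genes *Col3a1* and *Col1a1* were among the largest terms of the sum, at 893 and 546 CPM in WT means. Of 8 tendon markers, 7 were negative and 3 (37.5%) were called lower, with a median of -0.93. In whole muscle, fewer cells of a type and less RNA per cell cannot be told apart. The part of progenitors or tendon cells in the *Itga11* result was not tested.

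*Itgb7*, a beta chain of lymphocytes and other leukocytes, had 24, 22, 46 and 58 counts in WT and 21, 12, 15 and 11 counts in KL-/- libraries (chromosome 15, 102215995 to 102231935). This equals 0.980, 1.02, 1.75 and 2.08 CPM in WT and 0.732, 0.573, 0.622 and 0.415 CPM in KL-/- libraries, without overlap. The mean fell from 1.46 ± 0.547 to 0.585 ± 0.132 CPM (SD, n = 4), and the log2 fold change was -1.33 (SE 0.33, FDR = 0.0292). Without WT replicate 3, WT replicate 4, KL-/- replicate 3 or KL-/- replicate 4 the call was lost, with an FDR of up to 0.0825 and a log2 fold change from -1.48 to -1.10, and the block gave an FDR of 0.0776. All 10 leukocyte markers, which include *Itgb2*, had a negative log2 fold change, with a median of -0.88. Of these markers 2 (20%) were past the threshold (*Adgre1* and *Laptm5*), beside 6.67% of all genes called lower. Their summed CPM was 61.6, 84.4, 115 and 58.5 in WT and 59.0, 53.8, 34.6 and 31.4 in KL-/- libraries, and none was at 0. WT replicate 4 was highest in *Itgb7* but had the lowest sum of the WT libraries, whereas KL-/- replicate 4 was lowest in both. The part of leukocytes in the *Itgb7* result was not tested.

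The other collagen, fibronectin and epithelial integrin chains did not pass. *Itga1*, a collagen and laminin receptor of capillaries and stroma, was at 23.8 to 33.9 CPM in WT and 18.5 to 25.3 CPM in KL-/- libraries and had a log2 fold change of -0.45 (SE 0.13, FDR = 0.0516), with an FDR of 0.0178 by DESeq2 and 0.0480 by limma-voom. *Itga5*, the fibronectin receptor chain, had -0.09 (SE 0.16), and *Itga4*, which binds fibronectin and VCAM-1 and pairs with the *Itgb7* chain, had -0.07 (SE 0.21). *Itga3*, *Itga8* and *Itga10* lay between -0.002 and 0.14 with an FDR of at least 0.655, and the sign of *Itga3* and *Itga8* depended on the scaling. *Itga9*, a receptor of tenascin-C, had the largest positive value among alpha chains at 0.43 (SE 0.22, FDR = 0.204), with 6.78 to 12.9 CPM in WT and 9.16 to 15.5 CPM in KL-/- libraries.

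*Itgb4*, which pairs with the *Itga6* chain in hemidesmosomes and in Schwann cells, was at 4.65, 6.98, 7.09 and 7.82 CPM in WT and 14.3, 7.87, 8.87 and 6.90 CPM in KL-/- libraries. KL-/- replicate 1 stood far above the rest, and KL-/- replicate 4 lay within the WT range. The log2 fold change was 0.52 (SE 0.24, FDR = 0.169), the largest of the 39 genes, and 0.25 without KL-/- replicate 1. Of 10 Schwann cell markers, 4 were called higher (among them *Sox10*, *Prx* and *Mbp*), beside 7.35% of all genes. Of these markers 9 were positive and none was at 0. Their summed CPM was 76.9, 106, 99.5 and 59.5 in WT and 111, 132, 137 and 127 in KL-/- libraries. All KL-/- sums lay above the WT sums, but KL-/- replicate 1, highest in *Itgb4*, had the lowest of the KL-/- sums. The part of Schwann cells in the *Itgb4* values was not tested.

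The integrin among the laminin receptors of mature fibres pairs the chains of *Itga7* and *Itgb1*. *Itga7* was at 117, 127, 136 and 130.1 CPM in WT and 149.7, 129.5, 163 and 168 CPM in KL-/- libraries. Only KL-/- replicate 2 lay within the WT range, and the other 3 exceeded every WT library. The log2 fold change was 0.26 (SE 0.09, FDR = 0.0723), and the FDR was 0.0115 without KL-/- replicate 2 and 0.0409 by DESeq2. *Mettl7b* overlaps *Itga7* on the opposite strand, and whether reads were counted by strand is not given in the sources used here.

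*Itgb1*, the common partner of the laminin- and collagen-binding alpha chains, was at 253, 279.7, 296 and 251 CPM in WT and 231, 271, 234 and 219.9 CPM in KL-/- libraries. KL-/- replicate 2 fell inside the WT range and the other 3 KL-/- libraries fell below it. Its log2 fold change was -0.18 (SE 0.08, FDR = 0.178). When library totals replaced the TMM factors, a scaling that moved the median of all genes from -0.02 to -0.13, *Itgb1* was at -0.29 with an FDR of 0.0364.

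Per length, *Itga7* was the most abundant alpha chain, and its lead over the other alpha chains was wider in KL-/- muscle. Of the summed CPM per kilobase of the 11 alpha chains, *Itga7* held 47.9% ± 1.99 in WT libraries and 57.4% ± 5.47 in KL-/- libraries (SD, n = 4), without overlap, with 45.3% to 49.7% in WT and 50.01% to 62.2% in KL-/- libraries. *Itga6* followed, with 16.0% ± 1.59 and 12.3% ± 0.635, then *Itgav* with 9.22% ± 0.962 and 6.28% ± 1.03, each without overlap. These shares use the values of the genes already compared and sum to a fixed total, so they are given as a description without a test. The ratio of *Itga6* to *Itga7* per kilobase was 0.304, 0.304, 0.367 and 0.360 in WT and 0.220, 0.264, 0.190 and 0.195 in KL-/- libraries, which does not depend on the scaling between libraries, and the groups did not overlap.

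Among beta chains *Itgb1* held 58.0% ± 4.68 in WT and 59.6% ± 2.11 in KL-/- muscle per kilobase, and *Itgb5* held 30.9% ± 4.53 and 32.8% ± 3.58, with overlap in both. *Itgb6* took 9.25% ± 0.893 in WT and 5.61% ± 1.92 in KL-/- muscle, and KL-/- replicate 2, at 8.12%, lay above WT replicate 2, at 7.97%. *Itgb4*, *Itgb7* and *Itgb3* each stayed under 2.5% in every library.

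**Figure D3:**
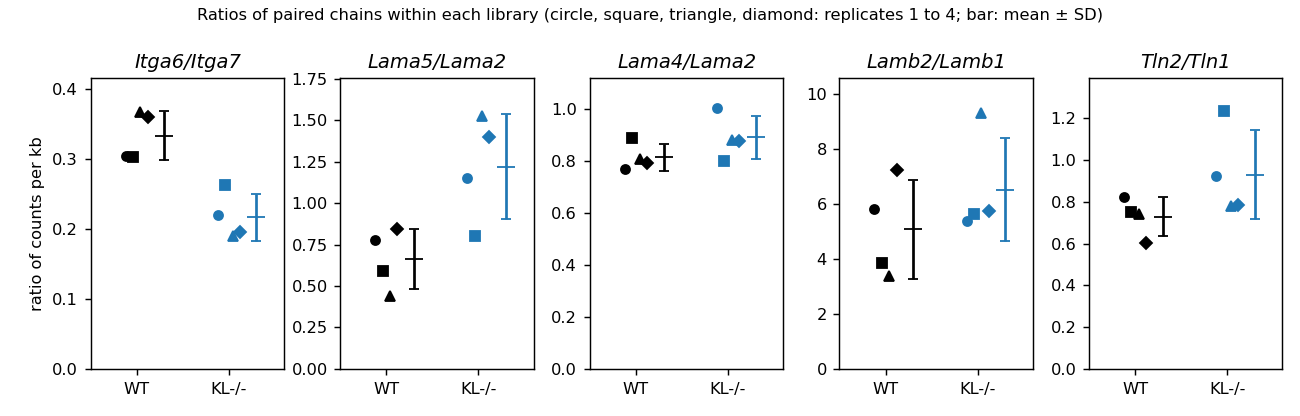
Ratio of CPM per kilobase between related chains (y axis, from 0, a scale for each panel) within each of 4 WT and 4 KL-/- libraries, with a symbol for each replicate and mean ± SD beside them. The groups are separate for *Itga6* over *Itga7* (0.304 to 0.367 against 0.190 to 0.264) and overlap in the other 4 panels.

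No laminin gene passed the threshold by edgeR. *Lama2*, the alpha chain of the fibre basement membrane, was at 62.1, 75.6, 100.3 and 64.8 CPM in WT and 61.1, 59.0, 38.5 and 42.6 CPM in KL-/- libraries. Every KL-/- library was below every WT library, WT replicate 3 was the highest and WT replicate 1 and KL-/- replicate 1 nearly met. The mean was 75.7 ± 17.4 in WT and 50.3 ± 11.4 CPM in KL-/- libraries (SD, n = 4). Its log2 fold change was -0.59 (SE 0.19, FDR = 0.0645). The FDR was 0.0165 by DESeq2, 0.0336 with library totals and 0.0485 without KL-/- replicate 2. An antisense gene overlaps *Lama2*.

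*Lamc1*, the gamma chain of nearly all muscle laminins, was at 146, 188, 240.0 and 129 CPM in WT and 139, 147, 101 and 129 CPM in KL-/- libraries, a log2 fold change of -0.45 (SE 0.19, FDR = 0.137). *Lamb1*, the beta chain of fibre and capillary laminins outside the synapse, was at 36.8, 56.4, 74.7 and 29.1 CPM in WT and 37.5, 40.0, 19.9 and 35.2 CPM in KL-/- libraries, a log2 fold change of -0.57 (SE 0.30, FDR = 0.218). In both genes WT replicate 4 lay among the KL-/- libraries, and WT replicates 2 and 3 lay above all of them.

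*Lamb2*, the beta chain of the neuromuscular synapse and of mature fibres, varied less. It was at 209, 211, 247 and 205 CPM in WT and 196, 219.8, 180.2 and 197 CPM in KL-/- libraries, a log2 fold change of -0.14 (SE 0.08, FDR = 0.267). KL-/- replicate 2 lay inside the WT range, and the other 3 lay below it. *Lamb2* held 82.2% ± 4.98 of the summed beta chain CPM per kilobase in WT and 85.8% ± 2.65 in KL-/- muscle, and *Lamc1* held 97.1% ± 0.597 and 96.7% ± 0.833 of the gamma chains, both with overlap.

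Further alpha chains lie at vessels, nerves and the synapse. *Lama4*, of capillaries and peripheral nerve, was at 29.8 to 50.5 CPM in WT and 21.1 to 38.2 CPM in KL-/- libraries, a log2 fold change of -0.46 (SE 0.21, FDR = 0.171). *Lama5*, of vessels and the synapse, was at 56.5, 52.4, 52.0 and 64.1 CPM in WT and 82.6, 55.6, 69.0 and 69.7 CPM in KL-/- libraries, a log2 fold change of 0.30 (SE 0.12, FDR = 0.113), with KL-/- replicate 2 inside the WT range and an FDR of 0.0188 without it. Per kilobase, *Lama5* was at 0.663 ± 0.182 times *Lama2* in WT libraries and 1.22 ± 0.318 times in KL-/- libraries (SD, n = 4), with 0.442 to 0.844 and 0.804 to 1.53, so that the groups overlapped only through KL-/- replicate 2 and WT replicate 4.

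The epithelial laminin chains were scarce. *Lama3* was at 2.33 to 3.13 CPM in WT and 1.46 to 4.18 CPM in KL-/- libraries, with a log2 fold change of -0.14 (SE 0.30). *Lamb3*, at 0.334 to 1.06 CPM in all libraries, had a value of 0.33 (SE 0.38). *Lamc3* was at 1.96 to 3.43 CPM in WT and 1.62 to 2.07 CPM in KL-/- libraries, at -0.42 (SE 0.20, FDR = 0.180).

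*Hspg2* encodes perlecan, the heparan sulfate proteoglycan that anchors growth factors and acetylcholinesterase in muscle basement membrane. It was at 390.1, 481, 600.1 and 403 CPM in WT and 370.0, 354, 265 and 337 CPM in KL-/- libraries, without overlap, a log2 fold change of -0.50 (SE 0.15, FDR = 0.0535). The FDR was 0.0119 by DESeq2, 0.0252 with library totals, 0.04998 without WT replicate 1 and 0.132 with the replicate block. *Nid1*, the main nidogen, was at 107, 155, 206 and 85.7 CPM in WT and 116, 115, 54.8 and 83.0 CPM in KL-/- libraries, and WT replicate 4 lay below KL-/- replicates 1 and 2. Its log2 fold change was -0.59 (SE 0.30, FDR = 0.203), and that of *Nid2* was -0.17 (SE 0.23, FDR = 0.643).

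The matrix genes shared a pattern across libraries. Of the 13 laminin, nidogen and perlecan genes, WT replicate 3 held the highest of the 8 values in 9 and KL-/- replicate 3 the lowest in 9. Summed CPM of the 10 laminin chains was 546, 633, 773 and 531 in WT and 560.5, 555, 437 and 505 in KL-/- libraries, and the groups overlapped. The sum of the 10 progenitor markers had the same highest and lowest library, at 3655 and 691 CPM. Collagen genes, themselves matrix genes, are among the largest terms of that sum, so it is not a measure of progenitors alone. The part of progenitors in the laminin values was not tested. Without WT replicate 3, the log2 fold change was -0.33 for *Nid1*, -0.30 for *Lamb1*, -0.26 for *Lamc1*, -0.30 for *Lama4* and -0.23 for *Lamc3*, each over 1.5 times closer to 0 than with all libraries.

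**Figure D4:**
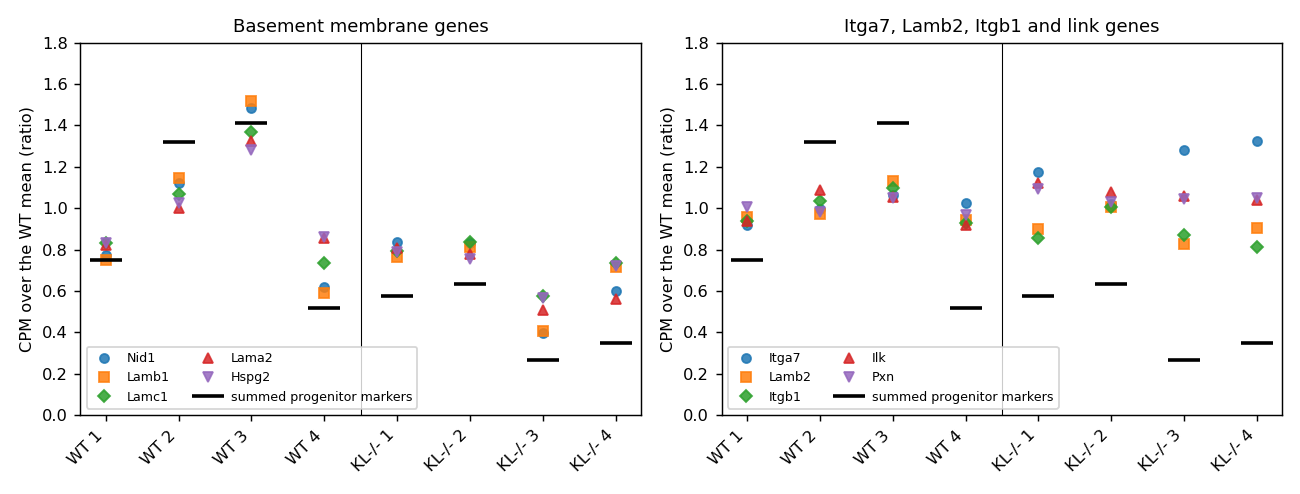
CPM over the WT mean (y axis, ratio, from 0) in each of the 8 libraries for *Nid1*, *Lamb1*, *Lamc1*, *Lama2* and *Hspg2* (left) and for *Itga7*, *Lamb2*, *Itgb1*, *Ilk* and *Pxn* (right), with black bars for the summed fibro-adipogenic progenitor markers. The left genes are highest in WT replicate 3 and lowest in KL-/- replicate 3, as the bars are, whereas the right genes vary less between libraries.

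The cytoplasmic links had log2 fold changes nearer to 0 than most matrix genes. *Fermt2* encodes kindlin-2, which binds beta chain tails to activate integrins. It was at 248, 217, 217 and 209.6 CPM in WT and 253, 249, 284 and 253 CPM in KL-/- libraries, the 1 gene of the 39 in which all KL-/- libraries were above all WT libraries. WT replicate 1 came within a few CPM of the KL-/- libraries. The log2 fold change was 0.22 (SE 0.07, FDR = 0.0675), with an FDR of 0.0392 without WT replicate 1, 0.0442 without KL-/- replicate 2 and 0.0296 by DESeq2.

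*Vcl*, vinculin, which reinforces the talin-actin bond and lines costameres, was at 173, 174, 167 and 155 CPM in WT and 142, 160.5, 127 and 128 CPM in KL-/- libraries. KL-/- replicate 2 lay above WT replicate 4, and the other 3 were below all WT libraries. Its log2 fold change was -0.26 (SE 0.08, FDR = 0.0634), with an FDR of 0.0111 without KL-/- replicate 2 and 0.0304 by DESeq2. The gene *Ap3m1* overlaps *Vcl* on the opposite strand.

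*Tln1* and *Tln2* encode talins, which link beta chain tails to actin, with the *Tln2* protein prominent in striated muscle. *Tln1* was at 182, 192, 191 and 207 CPM in WT and 190.4, 146, 183 and 183 CPM in KL-/- libraries, a log2 fold change of -0.14 (SE 0.09, FDR = 0.300), and KL-/- replicate 2 was apart below the rest. *Tln2* was at 212, 205, 201 and 176 CPM in WT and 249.6, 256, 202 and 204 CPM in KL-/- libraries, a log2 fold change of 0.20 (SE 0.10, FDR = 0.188), with KL-/- replicates 1 and 2 above all others. The ratio of *Tln2* to *Tln1* per kilobase was 0.729 ± 0.0929 in WT libraries and 0.930 ± 0.212 in KL-/- libraries (SD, n = 4), with overlap.

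*Ilk*, the pseudokinase at the core of the complex with parvin and PINCH, was at 47.9, 55.7, 54.0 and 46.9 CPM in WT and 57.5, 55.2, 54.1 and 53.1 CPM in KL-/- libraries, a log2 fold change of 0.10 (SE 0.07, FDR = 0.331), which was -0.01 with library totals. Its groups overlapped and its parvin partner *Parva* was at -0.25 (SE 0.14, FDR = 0.244). *Pxn*, paxillin, *Ptk2*, focal adhesion kinase, and *Zyx*, zyxin, which recruit signalling and actin-repair proteins, lay between -0.05 and 0.07 with an FDR of at least 0.338. Their SEs of 0.05 to 0.08 were among the smallest of the 39 genes. Library totals turned *Pxn* to -0.04.

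**Figure D5:**
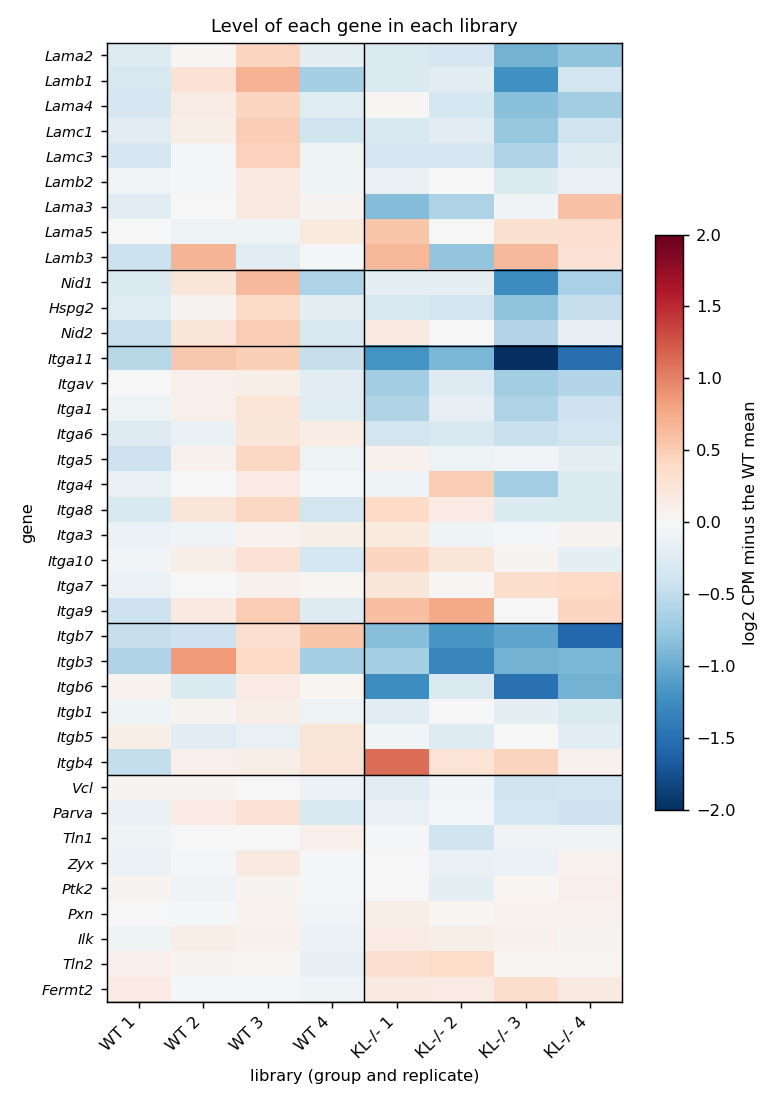
Log2 CPM minus the WT mean (color, from -2 in blue to 2 in red) for 38 of the 39 genes (rows, grouped by role and sorted by log2 fold change) in each library (columns), where *Itga11* in KL-/- replicate 3 exceeds the scale and is drawn at its end. KL-/- replicate 3 is the bluest column among the laminins, nidogens and perlecan, and the rows of the cytoplasmic links at the bottom are pale throughout.

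Per length, *Fermt2* was the most abundant of the 39 genes, at 68.7 CPM per kilobase in WT and 80.1 in KL-/- muscle, followed by *Itgb1* at 64.4 and 57.0. In WT means *Lamb2* (38.8 in WT and 35.2 in KL-/- muscle), *Itgb5* (34.3 and 31.2), *Hspg2* (33.0 and 23.4), *Vcl* (32.0 and 26.6) and *Itga7* (31.6 and 38.0) came next. In KL-/- means *Pxn* (28.8 in WT and 30.3 in KL-/- muscle) and *Ilk* (27.2 and 29.3) stood above *Vcl* and *Hspg2*. Of the 5 genes called lower, *Itga6* and *Itgb6* were near 10 CPM per kilobase in WT, at 10.6 and 10.3, *Itgav* at 6.08, *Itga11* at 1.37 and *Itgb7* at 0.545.

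Lists of genes around these pathways each held 1 or 2 calls in either direction, beside 6.67% of all genes called lower and 7.35% higher. The share called lower was 5% of the other basement membrane genes. It was 6.67% of the other receptors and partners and 3.85% of the other focal adhesion genes. These shares are near or below that of all genes, and each list held as many calls higher as lower. Of 20 other basement membrane genes, 1 was lower (*Ntn1*, netrin-1, log2 fold change -0.71, SE 0.18, FDR = 0.0321) and 1 higher (*Frem2*, an extracellular matrix protein of epithelial basement membranes, 0.91, SE 0.26, FDR = 0.0443), with 16 negative values and a median of -0.50. All 5 measured collagen IV genes were negative, from -0.92 for *Col4a1* (FDR = 0.0823) to -0.27 for *Col4a3* (FDR = 0.444), and none passed. *Agrn*, agrin, the organizer of the neuromuscular synapse that binds laminin, was at 0.04 (FDR = 0.868).

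Of 15 other laminin receptors and integrin partners, 1 was lower and 1 higher, with a median of 0.04. *Cd151*, a tetraspanin that binds laminin-binding integrins directly, fell from 105 ± 1.30 to 77.0 ± 5.61 CPM (SD, n = 4), without overlap, a log2 fold change of -0.45 (SE 0.06, FDR = 0.00422). *Tspan4*, another tetraspanin, rose by 0.45 on the log2 scale (SE 0.13, FDR = 0.0483), and its groups overlapped. *Dag1*, dystroglycan, a laminin receptor outside the integrins, did not pass. It went from 399 ± 28.0 to 343 ± 13.6 CPM (SD, n = 4), without overlap, a log2 fold change of -0.22 (SE 0.07, FDR = 0.0533). Of 52 other focal adhesion genes, 2 were lower and 2 higher, with a median of -0.06. *Vasp*, which extends actin filaments, was at -0.68 (SE 0.17, FDR = 0.0277) and *Parvb*, the parvin of striated muscle, at -0.20 (SE 0.05, FDR = 0.0360), while *Pak1*, a kinase downstream of Rac, was at 0.70 (SE 0.17, FDR = 0.0280) and *Arhgap26*, a GTPase-activating protein that binds focal adhesion kinase, at 0.63 (SE 0.13, FDR = 0.0140).

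The positions of all 39 genes matched GENCODE M21. For 25 of them, among which are the 5 genes called lower, no exon of another gene overlapped. The other 14 share exonic bases with another gene, 2 on the same strand (*Itga1* with *Gm49395* and *Itga10* with *Gm42957*) and 12 on the opposite strand, and how the counting assigned such reads is not given in the sources used here.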

How the data were processed

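RNA of 4 WT and 4 KL-/- TA muscles was sequenced. The authors mapped the reads with STAR (mm10), dropped low-quality alignments and deposited whole-number counts per gene from featureCounts, without normalization, for 12551 genes. The submitters' processing notes also name FastQC and edgeR. The annotation version and the strand setting are not given in the sources used here.

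The deposited counts were tested with edgeR 4.0.16 under R 4.3.3. Its filter on low counts removed no gene. Libraries were scaled by TMM, genotype was the single model term, and p-values of the quasi-likelihood test were adjusted by Benjamini-Hochberg over all 12551 genes, with calls at an FDR under 0.05. The SE was the absolute log2 fold change divided by the square root of the test statistic. CPM uses TMM-scaled totals. A count of 3 equals 0.105 to 0.143 CPM, and counting error is only part of the spread between mice. No libraries of a genotype were duplicates, since pairs of them differed by a chi-square of at least 9.92 per gene. KL-/- replicate 2 was furthest from its group, at 84.4, 84.8 and 60.6 from KL-/- replicates 1, 3 and 4. The remaining KL-/- pairs were at 18.0 to 27.9 and the WT pairs at 9.92 to 45.9. CPM was divided by the counted gene length in kilobases for comparisons between genes. The test was first run on simulated counts with known fold changes and recovered them there. That run is no measure of how often small changes, or changes in genes with few counts, are found.

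No values are given for 1 of the 39 genes alone, while counts, medians and sums include it. The members and gene lists were chosen with earlier results of these data known. Values per library are given for genes past the FDR threshold, for *Lama2*, *Lamb1*, *Lamb2*, *Lamc1*, *Itga7*, *Itgb1*, *Tln1*, *Tln2*, *Vcl* and *Ilk*, and for genes without overlap between the genotypes, and those of *Nid1*, *Lama5* and *Itgb4* were added after values had been seen. *Col4a1*, *Col4a3*, *Agrn*, *Dag1*, *Col3a1* and *Col1a1* were likewise named after values had been seen. Alternatives were RLE factors, library totals, DESeq2 1.42.0, limma-voom (limma 3.58.1), no filter, at least 10 counts in each library, a block for the replicate number and each library left out. The edgeR 3 quasi-likelihood and robust quasi-likelihood fits were added after seeing the data. Promoters are RefSeq entries of GRCm38.p6 within 500 bases of the counted start, found for 24 of 39 genes.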

Additional observations from a re-analysis of the deposited data

Results flagged for a closer look

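In 78 groups of 4 libraries, 1 for each of the 39 genes and each genotype, 2 libraries lay far from the other 3 by Dixon's test at the 95% level, where chance gives about 1 in 20. *Lamb2* in WT replicate 3 was at 247 CPM, and the other WT libraries lay at 205 to 211 CPM. *Fermt2* in KL-/- replicate 3 was at 284 CPM, and the other KL-/- libraries lay at 249 to 253 CPM. WT replicate 3 held the highest value of the 8 libraries in 18 of the 39 genes and KL-/- replicate 3 the lowest in 15.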

How the results depend on the processing

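*Itgav* kept an FDR under 0.05 in all 8 fits that left out a library and in all 9 other settings. The count of members called lower was 5 with RLE factors, with no filter, with a minimum of 10 counts (which left 38 of the 39 genes) and with edgeR 3, 6 with limma-voom and with the robust fit, 11 with library totals, 10 with DESeq2 (and 2 higher, *Itga7* and *Fermt2*), and 1 with the replicate number as a block. With 1 library left out, the count lower ranged from 1 to 8 and the count higher from 0 to 3, and over all genes 762 to 2755 had an FDR under 0.05 and 400 to 1239 were also 0.5 or more from 0 on the log2 scale. Under the replicate block these counts were 671 and 444. The 2755 and 1239 genes came without KL-/- replicate 2, against 1759 and 812 with all libraries. That fit also gave the 8 members lower and 3 higher. The deviations of same-numbered WT and KL-/- libraries correlated at -0.15, 0.18, -0.37 and 0.02, which is no clear sign that the numbers pair the mice. So few correlations cannot exclude pairing, and litter, which the labels do not give for each mouse, was not a term in any fit. Why calls were lost under the block was not tested. Library totals moved the median of all genes from -0.02 to -0.13 and that of the 39 genes from -0.14 to -0.26. They placed 18.8% of the called genes higher, against 52.4% with TMM factors. Of the 12551 genes they called 2127 lower, against 837 with TMM factors.

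The sign of some genes near 0 turned. Library totals gave -0.087 for *Itga3*, -0.043 for *Pxn* and -0.014 for *Ilk*, DESeq2 gave 1.45e-05 for *Ptk2*, and *Itga8* was at 0.0039 with RLE factors, 0.015 with limma-voom and 0.00042 under the block. With 1 library left out, the log2 fold change ranged from -0.018 to 0.079 for *Itga3*, -0.304 to 0.027 for *Nid2*, -0.047 to 0.055 for *Ptk2*, -0.215 to 0.066 for *Itga5*, -0.514 to 0.074 for *Lama3*, -0.160 to 0.162 for *Itga8*, -0.318 to 0.085 for *Itga4* and -0.086 to 0.020 for *Zyx*. The cause was not tested.

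Precision was lowest for the genes with few counts, with SEs of 0.33 to 0.42 for *Itgb7*, *Itgb3*, *Lamb3* and *Itga11*. A difference well above its SE could still be missed in them with 4 mice a genotype. *Itgb3*, at -1.10 with an SE of 0.38, did not pass (edgeR, FDR = 0.0797). Protein was not measured in these data.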
